A study of Homo sapiens with 30 samples.

Results

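T-lineage transcription factors are the DNA-binding proteins that set up and hold the gene programme of developing T cells. Here they are 10 genes, GATA3, TCF7, LEF1, BCL11B, BCL11A, RUNX1, RUNX3, IKZF1, TOX and SOX4, taken by name and found by their GENCODE 29 symbols among the 60554 gene identifiers counted. All 10 had enough reads to be tested. They were followed in 5 human T-cell acute lymphoblastic leukaemia lines named Loucy, PER-117, PEER, MOLT-16 and TALL-1. Each line was treated for 48 h with 1 µM decitabine, a cytidine analogue that traps DNA methyltransferases once it is built into DNA, or with the solvent DMSO. There were 3 libraries for each line and treatment, 30 in all, read from the 3′ ends of polyadenylated RNA. No label ties the 3 libraries of a group to separate cultures, so the tests measure the spread between libraries, which may be technical. Each line derives from 1 leukaemia, and in RNA from bulk cells fewer cells of a type and less RNA per cell cannot be told apart.

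In the thymus, Notch signals switch on TCF7 and GATA3, which open the T-cell programme, and BCL11B then closes off the other lineages. RUNX1, RUNX3 and IKZF1 act from the stem cell to the mature lymphocyte, LEF1 and SOX4 are HMG-box proteins of the same broad class as TCF7, and TOX is needed for the CD4 lineage. BCL11A, the close relative of BCL11B, is best known from progenitors, B cells and the silencing of fetal haemoglobin. Several of the 10 are rearranged, mutated or misexpressed in T-cell leukaemia, and Loucy is widely used as a model of its early T-cell precursor form.

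Reads on the gene's strand numbered 2.20 M to 15.4 M per library, and MOLT-16, TALL-1 and PEER had the shallower libraries. The 8 T-lineage markers (CD3D, CD3E, CD3G, CD2, CD5, CD7, LCK and CD247) all had reads in every group, but some had few. CD2 and CD5 had 6 and 7 reads in PER-117 with DMSO and 19 and 5 with decitabine. CD2 had 31 reads in Loucy with DMSO. The summed level of the 8 markers was 335 to 353 CPM in PER-117 decitabine libraries and 561 to 578 CPM in PER-117 DMSO libraries, the lowest of the 5 lines. CPM are read counts divided by the TMM-scaled library size in M reads. In 3 DMSO libraries there were transcripts that otherwise belong to another line. The 19 genes restricted to PEER stood at a median of 20.7% of their PEER level in MOLT-16 DMSO replicate 3 and at 17.6% in TALL-1 DMSO replicate 3. In PEER DMSO replicate 2 the 6 genes restricted to TALL-1 stood at 8.54% and the 19 restricted to MOLT-16 at 5.87%. In MOLT-16 DMSO replicate 3 those of TALL-1 stood at 3.85%. The other 12 DMSO libraries reached at most 1.99% and the 15 decitabine libraries, which also served to choose these genes, at most 2.25%. Results on the 10 factors that rest on those 3 libraries are given with and without them, other named genes are given without them where a call changed, and "mixed libraries" below means these 3.

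Decitabine lowers DNA methylation, which sits mostly at CpG, so the CpG content of the upstream region of 3 factors is shown. BCL11B is shown because it fell in 3 lines, and GATA3 and RUNX1 because their responses differed between lines. LEF1, SOX4 and TCF7 meet the same reasons and are given by their counts only. The sequences are RefSeq windows upstream of a transcript start in GRCh38.p14, 5′ to 3′ on the gene's strand, with CG in capitals. The stretch of GATA3 stops where the annotated UTR begins. For RUNX1 the window belongs to a start 160599 bases from the nearest principal transcript start of GENCODE 29.
BCL11B, chr14:99272198-99272447, minus strand: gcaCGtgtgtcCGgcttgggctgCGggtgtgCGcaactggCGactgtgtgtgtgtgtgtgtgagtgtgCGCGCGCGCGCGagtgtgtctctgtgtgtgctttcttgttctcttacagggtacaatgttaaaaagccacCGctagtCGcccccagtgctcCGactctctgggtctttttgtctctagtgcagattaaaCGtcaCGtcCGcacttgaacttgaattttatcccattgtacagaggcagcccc
GATA3, chr10:8054438-8054652, plus strand: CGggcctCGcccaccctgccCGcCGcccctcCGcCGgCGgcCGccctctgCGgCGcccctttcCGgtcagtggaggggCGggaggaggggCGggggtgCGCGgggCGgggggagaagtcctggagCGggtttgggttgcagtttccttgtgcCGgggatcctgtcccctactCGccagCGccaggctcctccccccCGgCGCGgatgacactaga
RUNX1, chr21:34888700-34888949, minus strand: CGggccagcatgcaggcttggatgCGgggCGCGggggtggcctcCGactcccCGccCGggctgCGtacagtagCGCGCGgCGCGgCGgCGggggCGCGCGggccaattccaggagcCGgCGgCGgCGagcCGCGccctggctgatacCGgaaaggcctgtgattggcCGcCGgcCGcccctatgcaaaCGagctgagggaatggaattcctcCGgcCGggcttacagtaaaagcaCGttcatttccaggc
These stretches hold 17, 23 and 32 CG in BCL11B, GATA3 and RUNX1. That of GATA3 is 215 bases long, and its whole window of 250 bases holds 26. Over 35116 upstream windows of 250 bases the median was 11 CG, the quartiles were 3 and 23, and 93.9% held at least 1. The windows of LEF1, SOX4 and TCF7 held 8, 8 and 22 CG. Those of LEF1 and SOX4 belong to starts 2121 and 983 bases from the nearest principal transcript start. All 250 bases of both lie in annotated UTR, so these counts describe sequence within the genes. The search was for the letters CG, which read the same on both strands. No methylation was measured, and the count describes the letters only.

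In untreated cells the 10 factors fell into 3 with wide and 7 with narrower differences between lines. TCF7 (chr5:134114711-134151865), the HMG-box factor that begins T-lineage commitment, spanned 421-fold. It averaged 696 ± 249 CPM in MOLT-16, 691 ± 65.5 in TALL-1, 320.4 ± 15.9 in PEER, 38.6 ± 8.41 in PER-117 and 1.65 ± 1.27 in Loucy (mean ± SD, n = 3 DMSO libraries here and below). Each step of that order was called except the first, MOLT-16 against TALL-1 (edgeR adjusted p = 0.992). Loucy had 18, 53 and 10 TCF7 reads in its DMSO libraries, so the factor was nearly silent there. Without the library of 53 reads, DMSO replicate 2, the span was 746-fold.

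BCL11A (chr2:60450520-60555154) spanned 405-fold, with 146 ± 19.2 CPM in TALL-1, 41.2 ± 2.29 in Loucy, 37.5 ± 5.83 in PEER, 9.67 ± 10.8 in MOLT-16 and 0.36 ± 0.436 in PER-117. The span rests on 10 reads in the PER-117 DMSO libraries, 8 of them in replicate 3, and was 1349.6-fold without that library. Loucy and PEER were not called apart (adjusted p = 0.725). The MOLT-16 mean rests on 1 mixed library, with 3.58, 3.28 and 22.2 CPM in DMSO replicates 1, 2 and 3, and is 3.43 CPM without it. GATA3 (chr10:8045378-8075203), a zinc-finger factor required from the earliest T-cell steps, spanned 33.8-fold. It was highest in Loucy at 414 ± 64.6 CPM, at 267 to 279.8 CPM in PEER, MOLT-16 and TALL-1, whose neighbours were not called apart, and lowest in PER-117 at 12.3 ± 3.3 CPM. Loucy was higher than PEER (adjusted p = 0.00298), and TALL-1 was higher than PER-117 by 4.44 on the log2 scale (adjusted p = 2.16e-17).

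The other factors spanned 1.78-fold to 5.81-fold. LEF1 (chr4:108047545-108168956), a partner of beta-catenin, ranged from 727 ± 75.4 CPM in PEER to 125 ± 7.9 CPM in PER-117. BCL11B (chr14:99169287-99271524), the commitment factor, stood at 495 ± 7.85 CPM in TALL-1, 329 ± 50.9 in PEER, 237 ± 21 in PER-117, 153 ± 45.1 in MOLT-16 and 109 ± 8.03 in Loucy. All 4 of its steps were called, and the last, MOLT-16 against Loucy, was not called without the mixed libraries (adjusted p = 0.0109 with all libraries and 0.166 without). SOX4 (chr6:21592768-21598619), an HMG-box factor of progenitors, ranged from 1421 ± 28.6 CPM in TALL-1 to 355 ± 64.8 CPM in PER-117. TOX (on chromosome 8) was highest in Loucy at 233 ± 13.5 CPM and lowest in PER-117 at 51.3 ± 3.66 CPM.

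RUNX3 (chr1:24899511-24965121), which silences CD4 in cytotoxic T cells, stood at 186 to 225 CPM in 4 lines, whose neighbours were not called apart, and at 53.7 ± 16.4 CPM in MOLT-16. RUNX1 (chr21:34787801-36004667), a core-binding factor of blood formation, was highest in Loucy at 140.5 ± 1.43 CPM and lowest in PER-117 at 69.4 ± 4.79 CPM. IKZF1 (chr7:50304068-50405101), the lymphoid zinc-finger factor Ikaros, had the narrowest span, from 317 ± 25.6 CPM in MOLT-16 to 178 ± 10.4 CPM in Loucy. All 10 factors differed among the untreated lines, as did 91.6% of the 15081 genes tested. Of the 100 factor and line pairs, 74 were called, where the share over all genes and pairs was 54.6%, and 42.8% to 61.3% per pair of lines. Of the 40 neighbours in the 10 orders, 18 did not differ beyond the spread between libraries by this test.

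**Figure D1:**
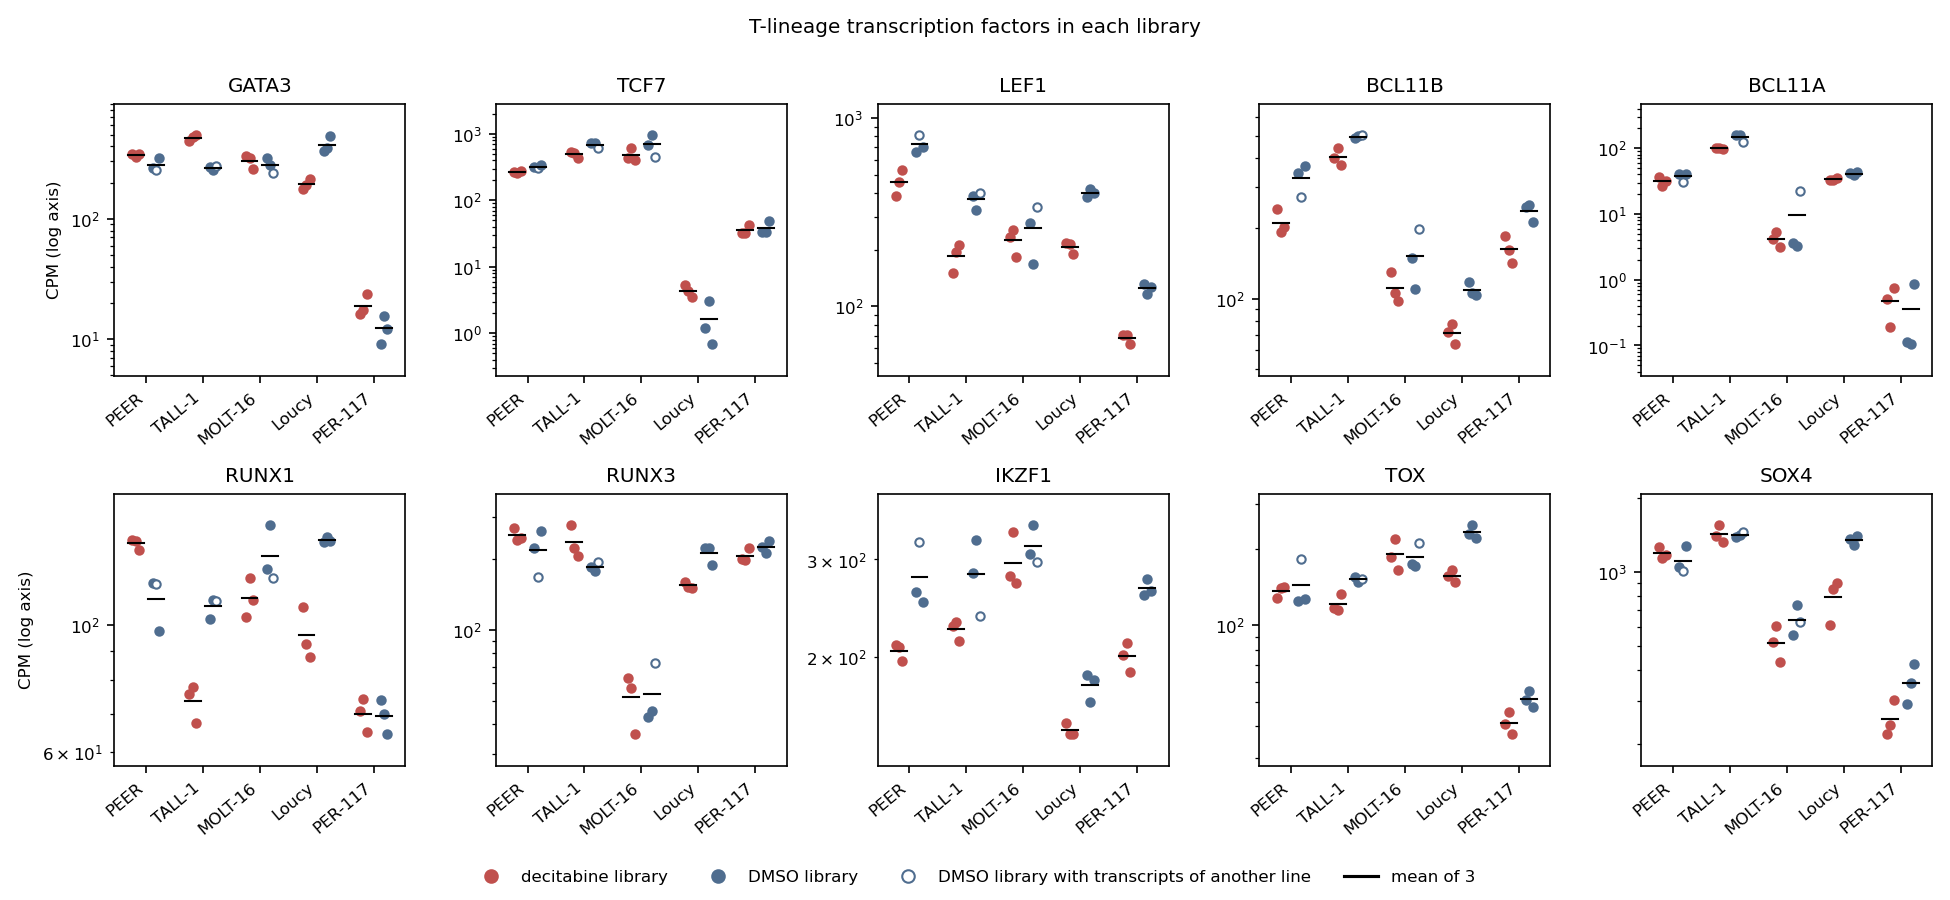
Level of each factor in every library, in CPM on a log axis whose range differs between panels, with decitabine libraries left of DMSO libraries in each line and the mean of 3 as a bar. Open points are the 3 mixed libraries. LEF1 is lower in all decitabine libraries than in all DMSO libraries of PEER, TALL-1, Loucy and PER-117, and the open BCL11A point in MOLT-16 stands at 22.2 CPM.

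Decitabine lowered more of these factors than it raised, most of all in Loucy. A factor was called at an edgeR quasi-likelihood adjusted p under 0.05, with Benjamini-Hochberg adjustment over all genes. In Loucy 6 of 10 were lower and 1 was higher, where 4.13% and 10.6% of all genes were lower and higher. In PER-117 4 were lower and 1 higher (3.16% and 8.67% of all genes). In PEER 3 were lower and none higher (0.961% and 3.54%), and in TALL-1 2 were lower and 1 higher (6.12% and 6.74%). In MOLT-16 none was called, where 1.01% of genes were lower and 2.19% higher, and DESeq2 also called none of the 10 and 5.29% of all genes. At an unadjusted p under 0.05 there were 4 in MOLT-16, where 19.7% of all genes were. The median log2 change of the 10 was −0.56 in Loucy, −0.33 in TALL-1, −0.23 in MOLT-16, −0.22 in PER-117 and −0.15 in PEER, and the median of all genes lay between −0.02 and 0.05.

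With 1 library of the line left out, whichever it was, 0 or 1 factor was called in PEER and 2 or 3 in PER-117. Without the mixed libraries 8 were lower and 1 higher in Loucy (8.0% and 14.5% of all genes), and 4 lower and 1 higher in PER-117 (5.6% and 11.9%). The libraries of these 2 lines are the same in both fits, which share 1 estimate of the spread over all lines. In PEER 2 were then lower and none higher (0.896% and 4.7%), in TALL-1 4 lower and 1 higher (6.49% and 7.46%), and in MOLT-16 1 lower and none higher (7.93% and 9.78%). The share of all genes called in either direction in MOLT-16 was 17.7% without them and 3.2% with all libraries. Summed levels of marker lists differed between treatments in some lines. That of the 8 T-lineage markers was 1520 to 1720.4 CPM in TALL-1 decitabine libraries and 2173 to 2372 CPM in TALL-1 DMSO libraries, 853 to 922 CPM against 980.1 to 1070.4 CPM in Loucy, and 1273 to 1369 CPM against 1442 to 1635 CPM in PEER. With the values of PER-117 given above, decitabine libraries lay below DMSO libraries in 4 lines, and in MOLT-16 they overlapped. Not every marker fell in those 4 lines. With decitabine against DMSO, Loucy had higher means of CD2 (4.47 against 0.66 CPM), CD5 (83.5 against 74.2), CD247 (86.5 against 71.1) and CD3E (125.9 against 125.4). Means were also higher for CD247 in TALL-1 (115.5 against 85.3 CPM) and for CD5 (124.5 against 106.2) and CD3E (199.7 against 191.6) in PEER. So was CD2 in PER-117 (0.547 against 0.216 CPM), and the other markers had lower means. The summed level of 5 myeloid markers was 44 to 46.5 CPM in Loucy decitabine libraries against 10.7 to 13.5 CPM in Loucy DMSO libraries, with reads for 5 of 5 markers in both. In PEER it was 11 to 18.4 CPM with decitabine, with reads for 5 markers, and 1.73 to 5.16 CPM with DMSO, with reads for 3. LYZ and CSF1R were at 0 in PEER DMSO libraries and had only 4 and 2 reads with decitabine. CD14 had 4 reads in PEER with decitabine and 2 with DMSO, MPO had 97 and 2, and CD33 had 124 and 48. The 4 NK markers summed to 30.2 to 38.4 CPM in TALL-1 decitabine libraries against 7.88 to 11.8 CPM in TALL-1 DMSO libraries. Nearly all of that sum was NKG7, with means of 33.3 and 9.21 CPM. NCAM1, KLRD1 and NCR1 had 2, 4 and 0 reads in TALL-1 with decitabine. The sum was also higher in all decitabine libraries of PEER and Loucy, again mostly NKG7. Its means were 19 against 9.01 CPM in PEER and 33 against 20.8 CPM in Loucy. The 4 stromal and epithelial markers summed to 9.44 to 14 CPM in PEER decitabine libraries against 1.72 to 3.78 CPM in PEER DMSO libraries. That sum was also higher in TALL-1, where it was mostly COL1A1 (mean 4.02 CPM with decitabine), and in Loucy. The sum of the 5 B-lineage markers was higher in all decitabine libraries of MOLT-16, Loucy and PER-117, with 72.9 to 78.1 CPM against 53.6 to 68.6 CPM in Loucy. The part of these genes in the results was not tested.

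**Figure D2:**
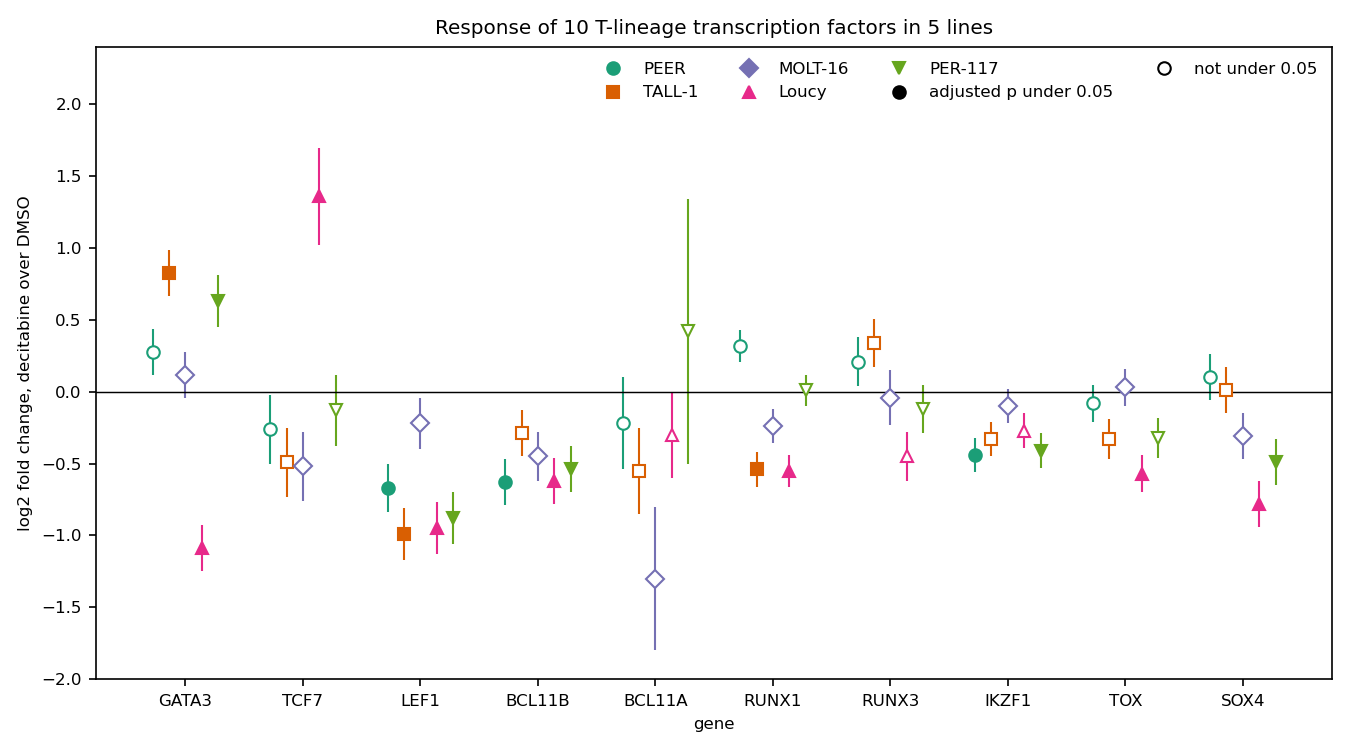
Log2 fold change, decitabine over DMSO, for each factor in each line, with its approximate standard error from 3 libraries per group. Filled symbols passed the test. Loucy has 6 filled symbols below 0 and 1, TCF7, above it.

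LEF1 was the factor lowered in the most lines. In TALL-1 it stood at 151, 195 and 212 CPM in decitabine libraries, against 384, 325 and 402 CPM in DMSO libraries. In Loucy it stood at 216, 215 and 190.3 CPM with decitabine and 383, 419 and 399 CPM with DMSO. In PER-117 the values were 70.5, 70.7 and 62.9 CPM with decitabine and 132, 117 and 127 CPM with DMSO. Every decitabine library lay below every DMSO library in these lines and in PEER. The same held for 14.1% of all genes in TALL-1, 15.7% in Loucy, 14.7% in PER-117 and 11.2% in PEER. The log2 changes were −0.99 (SE 0.18, adjusted p = 0.000312) in TALL-1, −0.95 (SE 0.18, adjusted p = 0.000256) in Loucy and −0.88 (SE 0.18, adjusted p = 0.000961) in PER-117, and each held when any 1 library of the line was left out. In PEER the levels were 387, 457 and 531 CPM with decitabine and 665, 811 and 705 CPM with DMSO, a change of −0.67 (SE 0.17, adjusted p = 0.0253). That call was lost without decitabine replicate 1 or 2 or DMSO replicate 2 or 3 (log2 −0.56 to −0.68), and held without all 3 mixed libraries (−0.56, adjusted p = 0.0304). In MOLT-16 the groups overlapped, with 235, 254 and 183 CPM against 276, 168 and 339 CPM, and the change was −0.22 with all libraries and −0.02 without the mixed one. LEF1 was called lower in 4 lines, as were 0.119% of all genes in 4 or more.

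BCL11B was lowered in 3 lines by similar amounts. It stood at 241, 192 and 202 CPM in PEER decitabine libraries, against 345, 272 and 370.2 CPM in PEER DMSO libraries. In Loucy it stood at 71.8, 77.9 and 63.7 CPM with decitabine and 118, 106 and 103 CPM with DMSO. In PER-117 it stood at 185, 162 and 142 CPM with decitabine and 247, 251 and 213 CPM with DMSO. The groups did not overlap in any of these lines, where 11.2%, 15.7% and 14.7% of all genes were likewise lower in every decitabine library. The log2 changes were −0.63 (SE 0.16, adjusted p = 0.0215) in PEER, −0.62 (SE 0.16, adjusted p = 0.00887) in Loucy and −0.54 (SE 0.16, adjusted p = 0.0258) in PER-117. The Loucy call was lost without decitabine replicate 3 (adjusted p = 0.0686). The PEER call was lost without decitabine replicate 2 or 3 or DMSO replicate 1 or 3, and the PER-117 call without decitabine replicate 2 or 3 or DMSO replicate 1 or 2. TALL-1 (−0.29) and MOLT-16 (−0.45) had values of the same sign that were not called. Being called lower in 3 or more lines was found for 0.65% of all genes.

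BCL11A was called in no line with all libraries. In TALL-1, its highest line, it stood at 100.3, 100.7 and 97.9 CPM in decitabine libraries, against 157, 157 and 124 CPM in DMSO libraries. These do not overlap, as was so in that direction for 14.1% of all genes. The log2 change was −0.55 (SE 0.3, adjusted p = 0.25), and −0.66 (adjusted p = 0.00555) without the mixed library, whose 124 CPM is the lowest of the 3. In MOLT-16 the change was −1.3 with all libraries and 0.24 without the mixed one, neither called. Decitabine libraries held 4.11, 5.38 and 3.16 CPM there, close to the 3.58 and 3.28 CPM of the other DMSO libraries. In PER-117 the gene had 7, 2 and 8 reads with decitabine and 1, 1 and 8 reads with DMSO.

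GATA3 was raised in 2 lines and lowered in 1. In TALL-1 it stood at 446, 483 and 495 CPM in decitabine libraries, against 271, 254 and 277 CPM in DMSO libraries. In PER-117 it stood at 16.2, 17.3 and 23.5 CPM with decitabine and 9.05, 15.7 and 12.1 CPM with DMSO. In Loucy, the line with the most GATA3, it stood at 177, 191 and 216 CPM with decitabine and 366, 389 and 487 CPM with DMSO. The groups were apart in each of the 3 lines. Of all genes, 15.5% in TALL-1 and 21.6% in PER-117 were likewise higher in every decitabine library, and 15.7% in Loucy lower. The log2 changes were 0.83 (SE 0.16, adjusted p = 0.000613) in TALL-1, 0.63 (SE 0.18, adjusted p = 0.0165) in PER-117 and −1.09 (SE 0.16, adjusted p = 1.2e-05) in Loucy. The TALL-1 and Loucy calls held when any 1 library of the line was left out, and the PER-117 call was lost without decitabine replicate 3 or DMSO replicate 1 or 3. PEER (0.28) and MOLT-16 (0.12) were not called.

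With all libraries TCF7 was called in Loucy alone, where it was nearly silent untreated. It stood at 5.27, 4.28 and 3.54 CPM in Loucy decitabine libraries, against 1.18, 3.1 and 0.683 CPM in Loucy DMSO libraries, a log2 change of 1.36 (SE 0.34, adjusted p = 0.0056). These are 78, 71 and 44 reads with decitabine and 18, 53 and 10 reads with DMSO. The call was lost without DMSO replicate 3 (adjusted p = 0.0553), and with 1 library left out in turn the change ran from 1.00 to 2.2, with the highest value without DMSO replicate 2. Genes restricted to MOLT-16, where TCF7 averaged 696 CPM untreated, had low medians in Loucy. These were 0.840%, 0.825% and 0.946% of their MOLT-16 level in the decitabine libraries and 0% in the DMSO libraries. Genes restricted to TALL-1 had medians of 0% in both. Whether transcripts of another line add to these TCF7 reads was not tested. In the 4 lines that express more TCF7 the changes were negative and not called. In MOLT-16 the levels were 441, 611 and 401 CPM with decitabine and 681, 952 and 455 CPM with DMSO, a change of −0.52 with all libraries and of −0.79 (adjusted p = 0.00912) without the mixed one, which had the 455 CPM.

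SOX4 and TOX were lowered in Loucy, and SOX4 also in PER-117. SOX4 stood at 611, 853 and 904 CPM in Loucy decitabine libraries, against 1361, 1294 and 1399.6 CPM in Loucy DMSO libraries, a log2 change of −0.78 (SE 0.16, adjusted p = 0.000799). In PER-117 it stood at 219, 239 and 302 CPM with decitabine and 292, 353 and 421 CPM with DMSO, a change of −0.49 (SE 0.16, adjusted p = 0.0408). The PER-117 libraries overlap, and that call was lost without decitabine replicate 1 or 2 or DMSO replicate 2 or 3. TOX stood at 156, 165 and 148 CPM in Loucy decitabine libraries, against 229, 248 and 221 CPM in Loucy DMSO libraries. Its groups were apart there, as in that direction for 15.7% of all genes. Its change was −0.57 (SE 0.13, adjusted p = 0.00285), a call that held without any 1 library. TOX was not called in the other 4 lines (−0.33 to 0.03), nor was SOX4 in PEER (0.10), TALL-1 (0.01) and MOLT-16 (−0.31).

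RUNX1 was lowered in TALL-1 and Loucy. It stood at 75.6, 78 and 67.3 CPM in TALL-1 decitabine libraries, against 102, 110.2 and 110.1 CPM in TALL-1 DMSO libraries. In Loucy it stood at 107, 92.7 and 87.8 CPM with decitabine and 139, 142 and 140.1 CPM with DMSO. The groups were apart in both, as in that direction for 14.1% of all genes in TALL-1 and 15.7% in Loucy. The changes were −0.54 (SE 0.12, adjusted p = 0.00203) and −0.55 (SE 0.11, adjusted p = 0.0008) on the log2 scale, each held without any 1 library. In PEER the decitabine libraries lay above the DMSO libraries, at 141, 140 and 135 CPM against 118, 118 and 97.3 CPM, as for 12.5% of all genes. The change of 0.32 was not called by edgeR (adjusted p = 0.114) but was by DESeq2 (adjusted p = 0.018). RUNX3 was called in no line, with changes from −0.45 in Loucy to 0.34 in TALL-1, and the Loucy value was called without the mixed libraries (−0.46, adjusted p = 0.0092).

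IKZF1 had small changes. In PER-117 it stood at 202, 212 and 188 CPM in decitabine libraries, against 259, 277 and 263 CPM in DMSO libraries, a log2 change of −0.41 (SE 0.12, adjusted p = 0.0218). In PEER it stood at 210.4, 209 and 197 CPM with decitabine and 262, 322 and 251 CPM with DMSO, a change of −0.44 (SE 0.12, adjusted p = 0.0314). The groups were apart in both lines, as in that direction for 14.7% of all genes in PER-117 and 11.2% in PEER. The PER-117 call was lost without decitabine replicate 1 or 3 or DMSO replicate 2. The PEER call was lost without any 1 of its decitabine libraries or DMSO replicate 1 or 2, and without the mixed libraries (−0.30, adjusted p = 0.136), where the mixed one held the 322 CPM. Without the mixed libraries IKZF1 was called in TALL-1 (−0.44) and Loucy (−0.28). LEF1, BCL11B and IKZF1 had negative values in all 5 lines, as did 8.48% of all genes.

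The responses of 4 factors differed among the 5 lines, where 13.6% of all genes did (edgeR test of the 5 responses on 4 degrees of freedom). They were GATA3 (adjusted p = 1.08e-05), RUNX1 (adjusted p = 0.00104), TCF7 (adjusted p = 0.0156) and SOX4 (adjusted p = 0.0288). Without the mixed libraries LEF1, RUNX3 and TOX were called too, 7 of 10, where 27.8% of all genes were. Tested pair by pair, 15 of the 100 differences between 2 lines were called, where the share over all genes and pairs was 3.73%, and 0.252% to 8.17% per pair, and these pairs were chosen after the data were seen. Loucy was 1 of the 2 lines in 13 of the 15, and GATA3 and TCF7 were each called in every pair with Loucy. Over all genes, 2.73% to 8.17% were called in pairs with Loucy and 0.252% to 6.58% in the other pairs. The GATA3 response was 1.92 higher on the log2 scale in TALL-1 than in Loucy (SE 0.22, adjusted p = 2.99e-06). The RUNX1 response was 0.86 higher in PEER than in TALL-1 (SE 0.16, adjusted p = 0.00304) and 0.87 higher in PEER than in Loucy (SE 0.16, adjusted p = 0.00171).

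With each line as 1 replicate and its 3 libraries summed, none of the 10 was called by edgeR, where 0.0578% of 13830 genes were. LEF1 had a log2 change of −0.78 (SE 0.12, adjusted p = 0.0593), lower in 5 of 5 lines. BCL11B had −0.47 (SE 0.08, adjusted p = 0.0593), also lower in 5 of 5. DESeq2 called LEF1, BCL11B and IKZF1 (−0.30) in the same design, 3 of 10, where it called 5.16% of all genes. Without adjustment 16.8% of genes had an edgeR p under 0.05, among them 5 of the 10 factors.

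**Figure D3:**
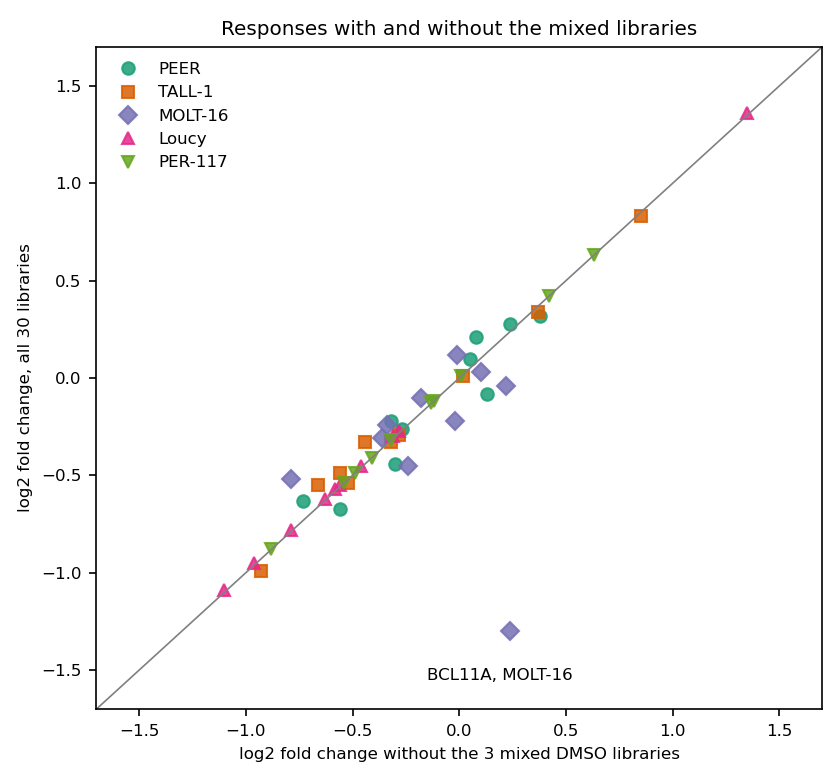
Log2 fold change of each factor in each line, decitabine over DMSO, with all 30 libraries on the vertical axis and without the 3 mixed DMSO libraries on the horizontal axis. The line marks equal values. BCL11A in MOLT-16 lies farthest from it, at −1.3 with all libraries and 0.24 without.

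Of 20 tested cofactors (CBFB, beta-catenin, the TLE repressors and the NuRD complex), 3 were higher and 2 lower in PER-117 and 3 were lower in Loucy, where 8.67% and 3.16% of all genes were higher and lower in PER-117 and 4.13% lower in Loucy. In PEER, TALL-1 and MOLT-16 0 or 1 was called in each direction, where 0.961% to 6.74% of all genes were. Without the mixed libraries 2 were higher and 4 lower in MOLT-16 (9.78% and 7.93% of all genes). The median log2 change of the cofactors lay between −0.17 and 0.08. Of 12 tested relatives of the factors, among 18 listed, 5 were higher and 1 lower in Loucy (10.6% and 4.13% of all genes). In PEER 3 were higher (3.54% of all genes), in TALL-1 2 (6.74%) and in PER-117 1 (8.67%). Without the mixed libraries 1 was higher in TALL-1 (7.46%), and in MOLT-16 2 were higher and 1 lower (9.78% and 7.93%). The median log2 change of the relatives was 0.68 in Loucy, where that of all genes was 0.03. TOX2, a relative of TOX, stood at 186 ± 37.2 CPM in Loucy decitabine libraries and 3.76 ± 2.36 CPM in Loucy DMSO libraries, a log2 change of 5.61 (adjusted p = 1.2e-07), beside the fall of TOX itself. In TALL-1 TOX2 rose by 2.74 (adjusted p = 0.00183). GATA1, the erythroid GATA factor, rose in PER-117 by 1.49, to 13.3 ± 2.29 CPM with decitabine against 4.74 ± 0.601 CPM with DMSO. In PEER GATA1 had 20 reads with decitabine and 2 with DMSO, a depth-adjusted ratio of 9.12 (95% counting interval 2.21 to 80.4).

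Of 29 tested other factors of T-cell specification, 10 were higher and 3 lower in Loucy (10.6% and 4.13% of all genes), 9 and 1 in PER-117 (8.67% and 3.16%), 7 and 0 in PEER (3.54% and 0.961%), 3 and 3 in TALL-1 (6.74% and 6.12%), and 1 and 1 in MOLT-16 (2.19% and 1.01%). Calls of higher genes were the more frequent over all genes too in Loucy, PER-117 and PEER. Without the mixed libraries the counts of higher and lower factors were 11 and 5 in Loucy, 12 and 1 in PER-117, 7 and 0 in PEER, 4 and 1 in TALL-1 and 6 and 2 in MOLT-16 (9.78% and 7.93% of all genes in MOLT-16). Their median log2 change was 0.24 in Loucy, 0.17 in PER-117, 0.18 in PEER, 0.00 in TALL-1 and 0.08 in MOLT-16. ID2, which binds and blocks E proteins, rose in 4 lines, by 2.30 in PER-117, 1.92 in TALL-1, 1.58 in PEER and 1.51 in MOLT-16, and its response differed among lines (adjusted p = 0.000345), with −0.18 in Loucy. ID1 rose in PEER, TALL-1 and Loucy, and ID3 rose in Loucy by 1.86 and in PER-117 by 2.51. MYB, a progenitor factor, fell in Loucy by 0.94, in PER-117 by 0.84 and in TALL-1 by 0.59. KLF2, a factor of quiescent T cells, rose in PEER and Loucy, and in PER-117 it had 90 reads with decitabine and 2 with DMSO, a depth-adjusted ratio of 35.8 (95% counting interval 9.63 to 300.4). TBX21, the T helper 1 factor, rose in PEER, Loucy and PER-117, by 1.93, 1.06 and 2.10. MOLT-16 also had calls, without the mixed libraries, for KLF2 (2.84), ID1 (2.33, against 0.45 with all libraries), TBX21 (1.15) and ID3 (0.72), and TALL-1 for KLF2 (2.42). HHEX rose in PER-117 by 5.64, to 7.97 ± 1.62 CPM with decitabine against 0.143 ± 0.165 CPM with DMSO.

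T-lineage genes known as targets of these factors did not move one way. Of 20 tested, 4 were higher and 1 lower in Loucy, 2 and 0 in PEER, 1 and 4 in TALL-1, 0 and 5 in PER-117, and 0 and 1 in MOLT-16, to be read against the same shares of all genes. The counts of higher and lower targets without the mixed libraries were 5 and 1 in Loucy, 2 and 1 in PEER, 2 and 7 in TALL-1, 0 and 6 in PER-117 and 1 and 5 in MOLT-16. Their median log2 change was 0.23 in Loucy and between −0.23 and −0.15 in the other lines. CD3G, a chain of the T-cell receptor complex, fell in PER-117 by 0.97, in TALL-1 by 0.48 and in Loucy by 0.48. CD2, an adhesion receptor, fell in TALL-1 by 0.87 and rose in Loucy by 2.74, to 4.47 ± 0.771 CPM with decitabine against 0.66 ± 0.0569 CPM with DMSO. DNTT, the template-free DNA polymerase of receptor rearrangement, was called lower in MOLT-16 (−3.11), a value of −0.04 without the mixed library. DNTT was called lower in PEER (−1.02) and TALL-1 (−1.11) without the mixed libraries. HHEX and ZBTB16 in TALL-1 (−3.34 and −3.89) likewise lost their calls without the mixed library, with 0.75 and −2.02.

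**Figure D4:**
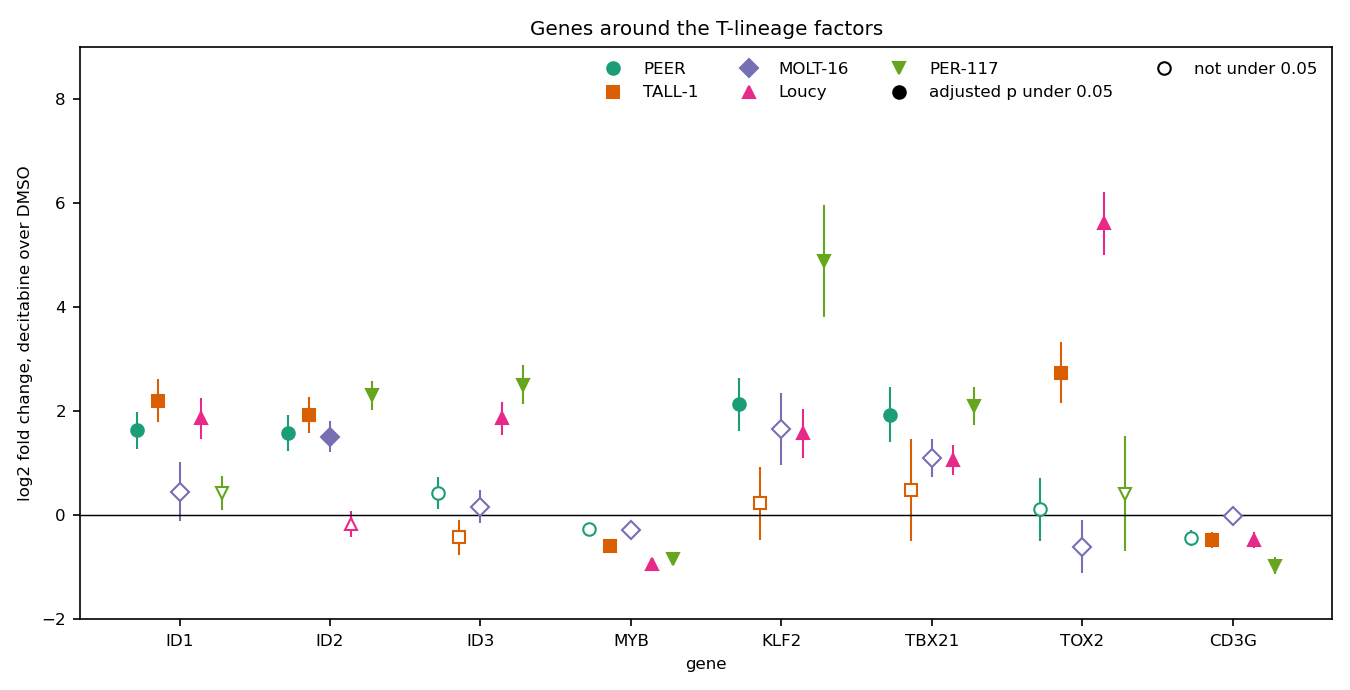
Log2 fold change, decitabine over DMSO, with approximate standard error, for 8 genes of the lists picked after their values were seen. Filled symbols passed the test. ID2 is filled and above 0 in 4 lines, and TOX2 in Loucy is the highest point, at 5.61.

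Across the 10 group means, the gene most like GATA3 among 9744 protein-coding candidates was GPX7 (r = 0.984), that most like TCF7 was DIAPH2 (r = 0.984) and that most like BCL11A was CPLANE1 (r = 0.993). LEF1 was most like KDM1A (r = 0.972), BCL11B like HBS1L (r = 0.96), RUNX1 like SIPA1 (r = 0.929), RUNX3 like ARRB1 (r = 0.977), IKZF1 like TFB1M (r = 0.97), TOX like HEBP1 (r = 0.975) and SOX4 like MAD2L2 (r = 0.976). The points share lines, 2 groups from each, and the factors whose levels differ most between lines had the most candidates with r of at least 0.9, 162 for GATA3 against 7 for RUNX1. Among the 10, BCL11A and SOX4 were the most alike (r = 0.96), followed by GATA3 and TOX (r = 0.91), and RUNX3 and IKZF1 the least (r = −0.48).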

How the data were processed

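Reads were counted per gene in 30 libraries (5 lines, decitabine or DMSO, 3 each). The deposited values are whole-number counts per gene; per the submitters' processing notes they come from STAR 2.4.2a on GRCh38 (hg38), and the counting annotation was not given in the sources used here. The column of reads on the gene's strand was used, since those reads were 12.8 to 15.2 times those on the opposite strand. Depth was 2.20 M to 15.4 M reads per library. No source used here names molecular identifiers, so several reads may come from 1 molecule, and intervals cover counting error only. Of 60554 identifiers 56996 matched GENCODE 29. For PEER DMSO, titles and file names exchange replicates 2 and 3, and the titles were used.

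One model in edgeR 4.0.16 under R 4.3.3 covered all libraries, with 10 group means, TMM scaling, a minimum count of 10 in filterByExpr (15081 genes kept) and the quasi-likelihood F test. Benjamini-Hochberg adjustment covered all genes. Each SE was taken approximately, as the size of the log2 change over the root of its F value. A second fit used the summed libraries of each line as pairs (13830 genes). Alternatives were RLE scaling, DESeq2 1.42.0, no filter, unstranded counts, each line alone, a replicate block and leaving out libraries or lines. The fit was tested on simulated data. The members and gene lists were chosen with earlier results of these data known. All 10 members were described in every line. List genes were named when called the same way in at least 3 lines, or at a log2 change of at least 2 where called. A similar gene is the 1 of highest Pearson r on log2(CPM + 0.5), among genes with a mean of at least 5 CPM. Promoter sequences are from RefSeq, where 9 of the 10 members matched.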

Additional observations from a re-analysis of the deposited data

Results flagged for a closer look

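The response to decitabine differed among the 5 lines for 4 factors, by edgeR's test of the difference itself. GATA3 (adjusted p = 1.08e-05) was higher with decitabine in TALL-1 (0.83) and PER-117 (0.63) and lower in Loucy (−1.09) on the log2 scale, and the difference was called in all 30 fits that left out 1 library. RUNX1 (adjusted p = 0.00104) was lower in TALL-1 and Loucy, with 0.32 in PEER, and was called in all 30 as well.

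TCF7 (adjusted p = 0.0156) was higher in Loucy, with negative values elsewhere. That difference was not called without Loucy decitabine replicate 1, Loucy DMSO replicate 1 or Loucy DMSO replicate 3, with adjusted p values up to 0.0669. SOX4 (adjusted p = 0.0288) was lower in Loucy and PER-117, and was not called without PEER decitabine replicate 1 or Loucy decitabine replicate 1, with adjusted p values up to 0.0792. Groups of 3 libraries are too small for a test of single libraries far from their group.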

How the results depend on the processing

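With RLE scaling, DESeq2, unstranded counts and the replicate block, the number of factors called per line stayed within 1.5 times. Without the 3 mixed libraries it was 5 in TALL-1 and 1 in MOLT-16, against 3 and 0, and 7 responses differed among lines, against 4. With each line fitted alone it was 0 in PEER and 5 in TALL-1, and with no filter 2 in MOLT-16. With the lines as replicates DESeq2 and the fit with no filter each called 3, against 0. With 1 library of the line left out the counts were 0 to 1 in PEER, 3 to 4 in TALL-1, 0 to 2 in MOLT-16, 6 to 7 in Loucy and 2 to 3 in PER-117, and 2 to 6 responses differed among lines. The lowest of these, 2, came without Loucy decitabine replicate 1. Such fits test fewer libraries, and otherwise the cause was not tested.

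No pairing by replicate number was seen over all lines, where deviations of same-numbered libraries had correlations from −0.19 to 0.22 and 3 of 15 were over 0.1. Such correlations cannot exclude a pairing. The same-numbered values in PER-117 were 0.07, 0.13 and 0.2. Those in PEER depend on the exchanged numbers, with 0.27 for decitabine replicate 3 and DMSO replicate 2 by title. With the replicate number as a block, 7, 5, 3, 0 and 3 factors were called in Loucy, PER-117, PEER, MOLT-16 and TALL-1, and 4 responses differed, as without it.

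The sign changed only for values not called with all libraries. Without the mixed libraries GATA3 in MOLT-16 was −0.01, BCL11A 0.24 and RUNX3 0.22, and TOX in PEER was 0.13. With PER-117 alone RUNX1 was −0.01. With unstranded counts TOX in MOLT-16 was 0, and with no filter SOX4 in TALL-1 was 0. With the lines as replicates RUNX3 was −0.03 with no filter and 0 with unstranded counts. With 1 library left out the ranges were −0.01 to 0.22 for GATA3 in MOLT-16, −0.28 to 0.06 for TCF7 in PER-117, −1.7 to 0.24 for BCL11A in MOLT-16, −0.02 to 2.02 for BCL11A in PER-117, −0.04 to 0.06 for RUNX1 in PER-117, −0.23 to 0.21 for RUNX3 in MOLT-16, −0.17 to 0.11 for TOX in PEER, −0.08 to 0.12 for TOX in MOLT-16 and −0.05 to 0.06 for SOX4 in TALL-1. With the lines as replicates and 1 line left out they were −0.02 to 0.49 for GATA3, −0.33 to 0.03 for TCF7 and −0.09 to 0.13 for RUNX3.

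Over all genes, MOLT-16 had 483 genes called, against 2788 without the mixed libraries, 1026 with no filter, 797 with DESeq2 and 59 alone. PEER had 679, against 1029 with no filter and 306 alone. Loucy had 2218, against 3541 without the mixed libraries and 3506 alone, and PER-117 had 1785, against 2758 and 3097. With 1 library left out, MOLT-16 had 179 without its decitabine replicate 1, 266 without decitabine replicate 3 and 1989 without DMSO replicate 3. PEER had 434, 369 and 417 without decitabine replicates 1, 2 and 3, PER-117 had 1188 and 1157 without DMSO replicates 1 and 2, and TALL-1 had 1224 without decitabine replicate 3, against 1940. Responses that differed among lines numbered 2049, against 3807 without MOLT-16 DMSO replicate 3, 4373 without the mixed libraries, 3281 with DESeq2 and 3129 with no filter. With the lines as replicates 8 genes were called, against 77 without the mixed libraries, 700 with DESeq2, 1681 with no filter, 5 with unstranded counts and 0 to 47 with 1 line left out. Depth limits BCL11A in PER-117 and MOLT-16 and TCF7 in Loucy, which rest on few reads.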
